A study of Mus musculus with 20 samples.

Results

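The collagens other than type IV and the glycoproteins and proteoglycans of the interstitial matrix were followed in mouse kidney as one set of genes. Members were taken by symbol. They were every collagen chain listed except those of type IV, the fibulins whose symbol starts with Fbln, and every lysyl oxidase. The rest were fibronectin, periostin, tenascin C, decorin, lumican, biglycan, fibrillin 1, elastin, thrombospondins 1 and 2, versican, SPARC and matrix Gla protein. Any fibulin under another symbol was not taken. The rule gave 53 of the 15780 genes listed, and 47 of them passed the filter on low counts together with 13990 genes in all. The rule itself uses no expression value, but it was chosen with earlier results of these data known. The remaining 6 members, Col11a2, Col19a1, Col22a1, Col28a1, Col6a5 and Col7a1, summed to between 4 and 100 counts over all libraries and were not tested.

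The study modeled IgA nephropathy, a kidney disease in which immune complexes of IgA1 settle in the glomeruli, by injecting female NCr nude mice bought at 7 weeks of age. These mice lack mature T cells, and that deficit was shared by every group. EIC, the injected immune complexes, were formed in vitro from 0.2 mg of human IgA1 with galactose-deficient O-glycans and 0.1 mg of a recombinant IgG autoantibody, and 6 doses were given by tail vein. Control mice received buffer without complexes, and both Control and EIC mice were gavaged with vehicle. EIC + S60 and EIC + S120 mice received the complexes and 60 or 120 mg/kg of sparsentan daily for 11 days, and all mice were killed on day 12. Sparsentan blocks the endothelin A receptor and the angiotensin II type 1 receptor. Each group held 5 mice, and poly(A) RNA of kidney tissue, which the study calls whole kidney, was sequenced. No group analysed here received sparsentan without complexes.

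Interstitial matrix is built mainly by fibroblasts and mural cells. Fibrillar collagens (types I, III and V among them) fold as trimers, are trimmed outside the cell and pack into fibrils. Fibril-associated collagens and small leucine-rich proteoglycans decorate those fibrils, lysyl oxidases cross-link them, and fibulins and fibrillin 1 scaffold elastic fibers. Matricellular proteins such as periostin and tenascin C carry signals more than load. A rise of these genes is the usual transcript readout of renal scarring.

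Promoter sequences are shown for a collagen gene that passed the test, Col27a1, and for the 2 fibrillar chains with the highest level per length, Col1a2 and Col3a1, so that the genes can be compared. The sequences are from RefSeq on GRCm38.p6 and run 5′ to 3′ over the 250 bases before the RefSeq start on the plus strand. Capitals mark matches to a motif, namely the CCAAT box with the letters CCAAT, the TATA box with the letters TATAAA, or the GC box with the letters GGGCGG. Both strands were searched, and no motif contains another. The windows are Col27a1 at chr4:63215162-63215411, Col1a2 at chr6:4505368-4505617 and Col3a1 at chr1:45311288-45311537. In the GENCODE annotation used for gene positions, Col27a1 starts at 63214004 and Col1a2 at 4504814. By that annotation those windows lie inside the genes, while the Col3a1 window ends just before the gene start at 45311538.
Col27a1: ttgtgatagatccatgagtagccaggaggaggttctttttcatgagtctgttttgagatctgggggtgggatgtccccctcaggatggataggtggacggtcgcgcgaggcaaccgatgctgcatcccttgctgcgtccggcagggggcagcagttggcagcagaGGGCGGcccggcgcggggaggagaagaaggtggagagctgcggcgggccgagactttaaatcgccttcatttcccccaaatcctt
Col1a2: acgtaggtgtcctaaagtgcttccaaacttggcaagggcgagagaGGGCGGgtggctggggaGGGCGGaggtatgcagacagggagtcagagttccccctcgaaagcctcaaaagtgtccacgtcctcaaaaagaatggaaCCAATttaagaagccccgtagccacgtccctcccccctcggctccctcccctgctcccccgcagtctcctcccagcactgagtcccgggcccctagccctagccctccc
Col3a1: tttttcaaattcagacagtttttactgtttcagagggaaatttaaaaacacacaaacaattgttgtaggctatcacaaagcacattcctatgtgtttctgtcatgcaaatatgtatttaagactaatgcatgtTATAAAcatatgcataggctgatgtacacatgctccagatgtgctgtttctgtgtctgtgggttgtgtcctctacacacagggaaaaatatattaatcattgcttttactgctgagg
The Col27a1 window held 1 GGGCGG, the Col1a2 window held 2 GGGCGG and 1 CCAAT, and the Col3a1 window held 1 TATAAA. Of the members, 37 of 53 had an entry, with 43 windows between them. CCAAT was in 11 of the 43, TATAAA in 7 and GGGCGG in 26. Among all 32851 mouse windows, 33.8% held CCAAT, 12.4% TATAAA and 32.7% GGGCGG. A match of letters is not a shown binding site. Mgp, Col1a1 and Fn1 had no entry.

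Library totals ran from 12662345 to 38651781 counts, with Control 651 and Control 652 the deepest. The whole-series checks found no library deposited again under another name, since the closest of 190 pairs differed by 6.27 times the chi-square that counting alone gives. The tissue check held, with 6 proximal tubule markers summing to between 7445 and 11610 CPM, the count scaled by library total and TMM factor. Members took 0.112% ± 0.0136 of counts in Control, 0.105% ± 0.0249 in EIC, 0.120% ± 0.0288 in EIC + S60 and 0.121% ± 0.0291 in EIC + S120 (SD, n = 5). In bulk tissue, fewer cells of a type and less RNA per cell cannot be told apart.

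Set per kilobase of exon, Sparc had the highest mean level over the 20 mice, 49.1 CPM per kb. Mgp, at 32.7, Bgn, at 24.01, Col18a1, at 23.5, and Fbln5, at 16.9 CPM per kb, came next. Bgn and Col18a1 did not differ beyond their spread, with SDs over mice of 6.18 and 3.74 CPM per kb. These leading genes are a collagen-binding matricellular protein, an inhibitor of calcification, a proteoglycan, the endostatin-bearing collagen of basement membranes and an elastic fiber scaffold. The interstitial fibrillar chains sat lower, with Col1a2 at 3.95, Col3a1 at 2.75 and Col1a1 at 2.10 CPM per kb. Fn1 stood at 4.23 CPM per kb and Postn at 0.306.

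**Figure D1:**
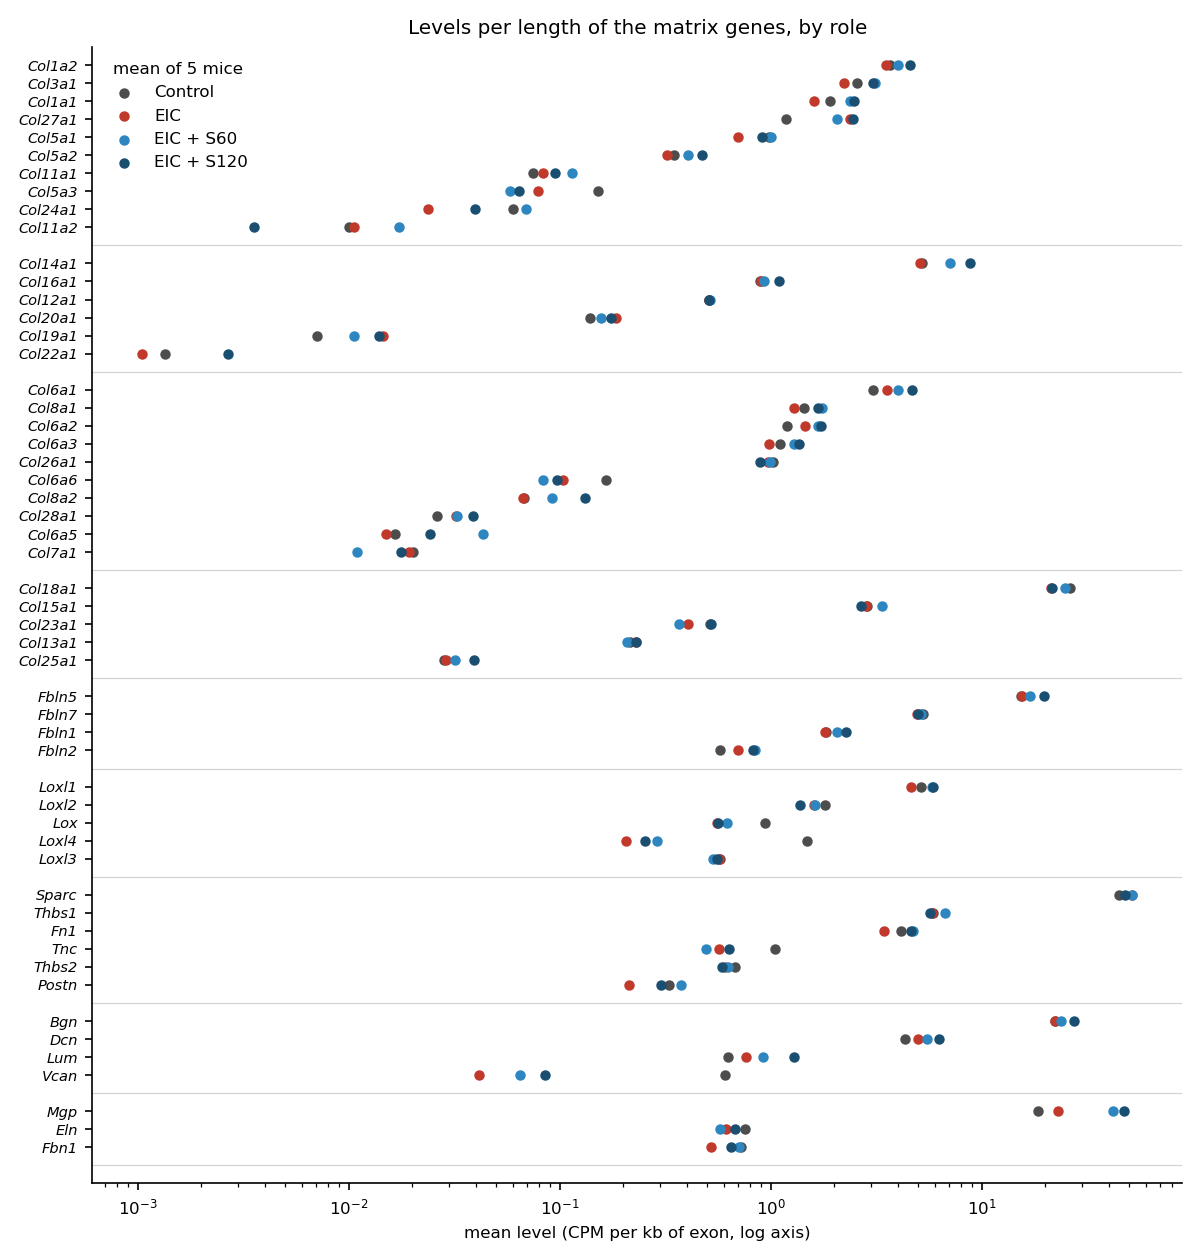
Mean level of each of the 53 matrix genes per kilobase of exon (CPM per kb, log axis), as one point per group of 5 mice, with genes ordered by level within each role and horizontal lines parting the roles. Sparc, at 49.1 over all mice, lies farthest to the right, the type I and III chains lie between 1.61 (Col1a1 in EIC) and 4.60 (Col1a2 in EIC + S120), and a group mean of 0 (Col22a1 in EIC + S60) is not drawn.

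Few members passed the test in any comparison. In EIC vs. Control, 1 of 47 members was called, higher, at an adjusted p under 0.05 (edgeR's quasi-likelihood test, Benjamini-Hochberg over all genes tested), where 2.97% of all genes tested were called and 1.61% were called higher. EIC + S60 vs. EIC called 0 members and 0% of all genes, and EIC + S120 vs. EIC called 0 members against 0.0572% of all genes. EIC + S60 vs. Control called 1 member, higher, against 1.29% and 0.808% higher, EIC + S120 vs. Control called 2, both higher, against 5.55% and 2.89% higher, and EIC + S120 vs. EIC + S60 called 0 against 0.0643%. The genes were Col27a1 and Mgp. Groups that did not overlap were found for 1, 0, 1, 2, 2 and 1 members in the same order of comparisons, against 4.01%, 0.886%, 1.2%, 3.82%, 5.82% and 1.66% of all genes. At an unadjusted p under 0.05 the members numbered 6, 3, 4, 7, 7 and 0, against 16.8%, 6.05%, 8.45%, 12.7%, 20% and 8.08% of all genes. As shares of members, these were 12.8%, 6.38%, 8.51%, 14.9%, 14.9% and 0%, near or below the background. DESeq2 called 1, 0, 1, 2, 3 and 0 members, and limma-voom 1, 0, 0, 1, 2 and 0.

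**Figure D2:**
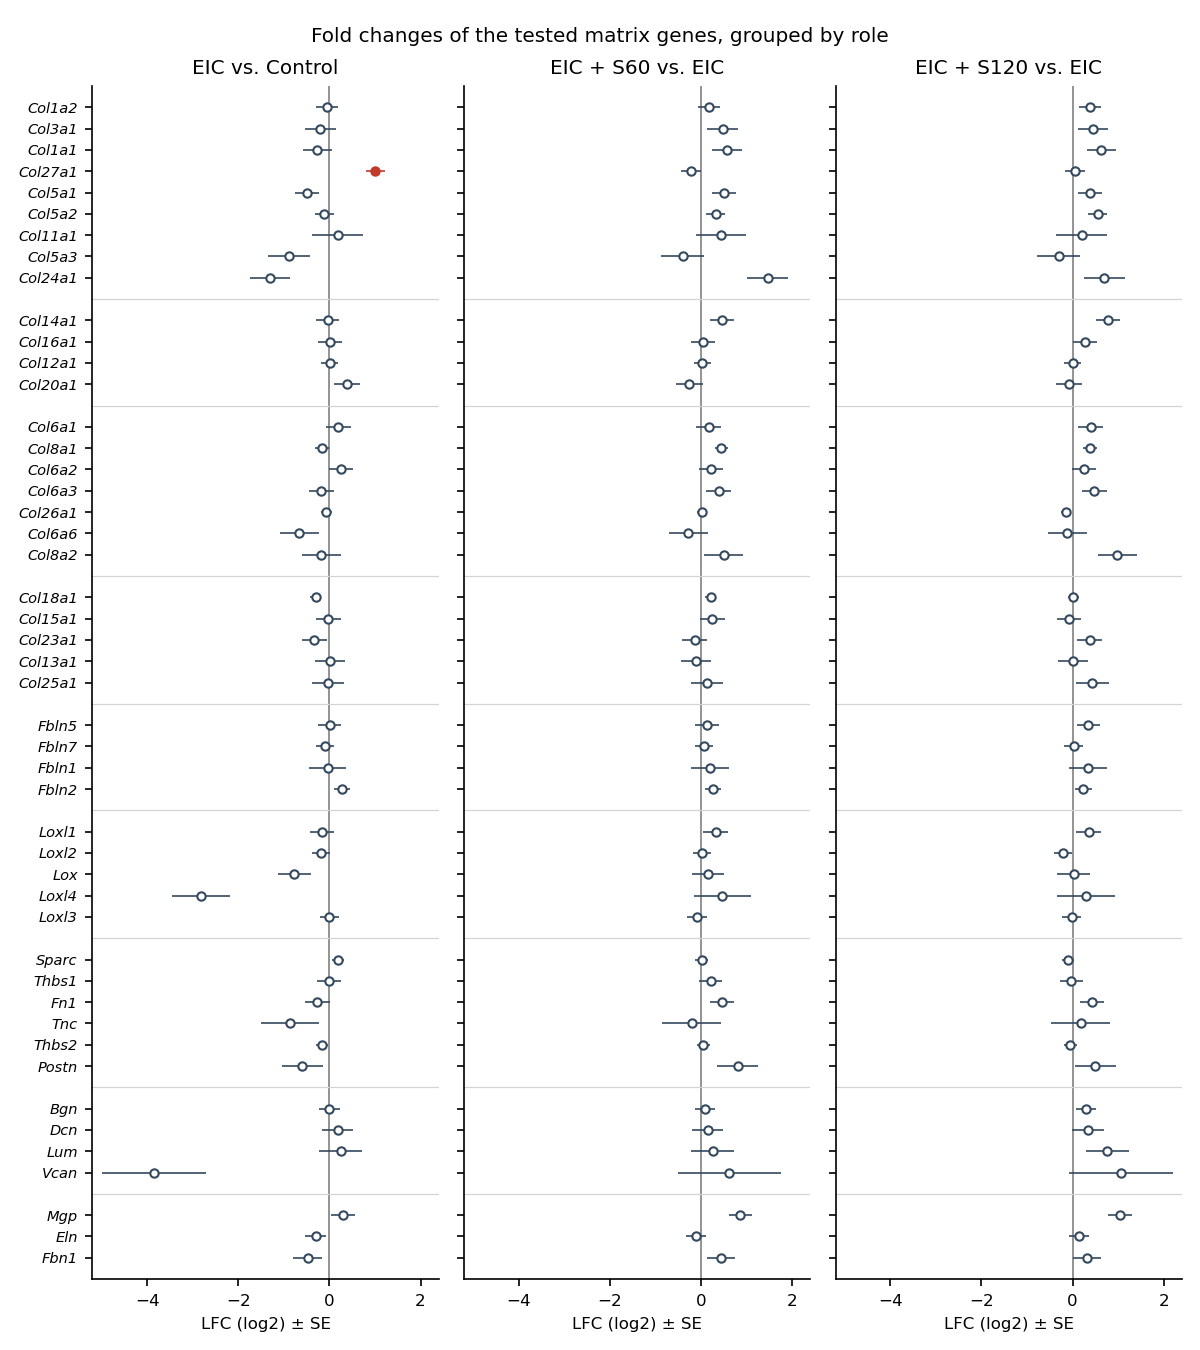
LFC (log2 fold change) of the 47 tested matrix genes for EIC over Control and for EIC + S60 and EIC + S120 over EIC. Bars are 1 SE from a separate fit on log2 CPM. Horizontal lines part the roles, from fibrillar collagens at the top to elastic fiber and calcification genes at the bottom. The filled red point, Col27a1 in EIC vs. Control, is the single gene called in these 3 comparisons, while Vcan and Loxl4 lie far to the left of 0 in EIC vs. Control with wide bars.

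Matrix Gla protein (Mgp, ENSMUSG00000030218.2, GRCm38 chr6:136872435-136875823, minus strand), a small protein that keeps vessel walls and cartilage from calcifying, was higher in both sparsentan groups than in Control. In CPM it stood at 21.7, 24.8, 14.1, 30.2 and 19.7 in the Control mice and at 23.2, 12.9, 31.2, 42.04 and 27.5 in the EIC mice. The EIC + S60 mice had 68.3, 56.1, 52.2, 30.6 and 42.2 CPM, and the EIC + S120 mice had 66.1, 54.8, 52.7, 40.4 and 65.7 CPM. Each sparsentan-treated mouse lay above each Control mouse, while EIC 67 and EIC 68 overlapped with EIC + S60 and EIC 68 with EIC + S120. Against Control, Mgp rose in EIC + S60 with an LFC of 1.17 ± 0.26 (± SE, adjusted p = 0.0373, edgeR) and in EIC + S120 by 1.34 ± 0.26 (adjusted p = 0.00637). Each SE printed beside an LFC came from a separate fit on log2 CPM. Against EIC the LFC was 0.87 ± 0.26 at the lower dose (adjusted p = 0.738, edgeR) and 1.03 ± 0.26 at the higher (adjusted p = 0.236), neither of which passed. Without EIC 66, which had the lowest Mgp, those 2 values were 0.68 and 0.85. The doses differed by 0.17 ± 0.26 and EIC from Control by 0.30 ± 0.26, with adjusted p = 0.936 and 0.623 (edgeR). These comparisons share their Control or EIC mice. The lower-dose call against Control was lost in a fit to those 10 libraries alone (adjusted p = 0.0547), without the 2 deepest Control libraries (adjusted p = 0.119), and when any one of 11 libraries was left out; the higher-dose call was kept in each of these fits.

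Elastin (Eln) and fibrillin 1 (Fbn1), the core and the microfibril of elastic fibers, did not pass in any comparison. Eln had mean levels of 6.12 ± 1.47 CPM in Control and 4.996 ± 1.58 in EIC (SD, n = 5), and of 4.64 ± 1.59 and 5.47 ± 0.879 in EIC + S60 and EIC + S120. Fbn1 averaged 8.74 ± 4.06 CPM in Control against 6.35 ± 2.42 in EIC, with an LFC of -0.48 ± 0.31 (adjusted p = 0.498, edgeR).

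Col27a1 (ENSMUSG00000045672.15, GRCm38 chr4:63214004-63334991, plus strand), a fibrillar chain best known from cartilage and the gene of the first promoter window, was higher in mice that received complexes. The Control mice were tightly grouped at 13.9, 14.2, 17.4, 15.5 and 16.3 CPM. The EIC mice had 50.3, 31.3, 16.4, 31.6 and 25.2 CPM, so that EIC 67 lay within the Control range and EIC 65 stood highest of all 20 mice. With sparsentan the values were 27.9, 33.6, 27.3, 21.7 and 23.3 CPM in EIC + S60 and 30.4, 42.3, 26.8, 38.8 and 22.1 CPM in EIC + S120, all above the Control range. Col27a1 rose in EIC vs. Control by an LFC of 1.01 ± 0.21 (adjusted p = 0.0236, edgeR) and in EIC + S120 vs. Control by 1.06 ± 0.21 (adjusted p = 0.0101). In EIC + S60 vs. Control the LFC was 0.80 ± 0.21 with adjusted p = 0.109, which did not pass, although the groups did not overlap. Against EIC, Col27a1 did not pass with sparsentan, at an LFC of -0.21 ± 0.21 at 60 mg/kg (adjusted p = 0.918, edgeR) and 0.05 ± 0.21 at 120 mg/kg (adjusted p = 0.979). The call in EIC vs. Control was lost without Control 651, Control 652, Control 654 or EIC 68 (adjusted p between 0.0511 and 0.0603), with the 10 libraries alone (0.0866), and without both deep Control libraries (LFC 0.94, adjusted p = 0.155). Without the deep Control libraries the EIC + S120 call was lost too (LFC 0.97, adjusted p = 0.0798).

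**Figure D3:**
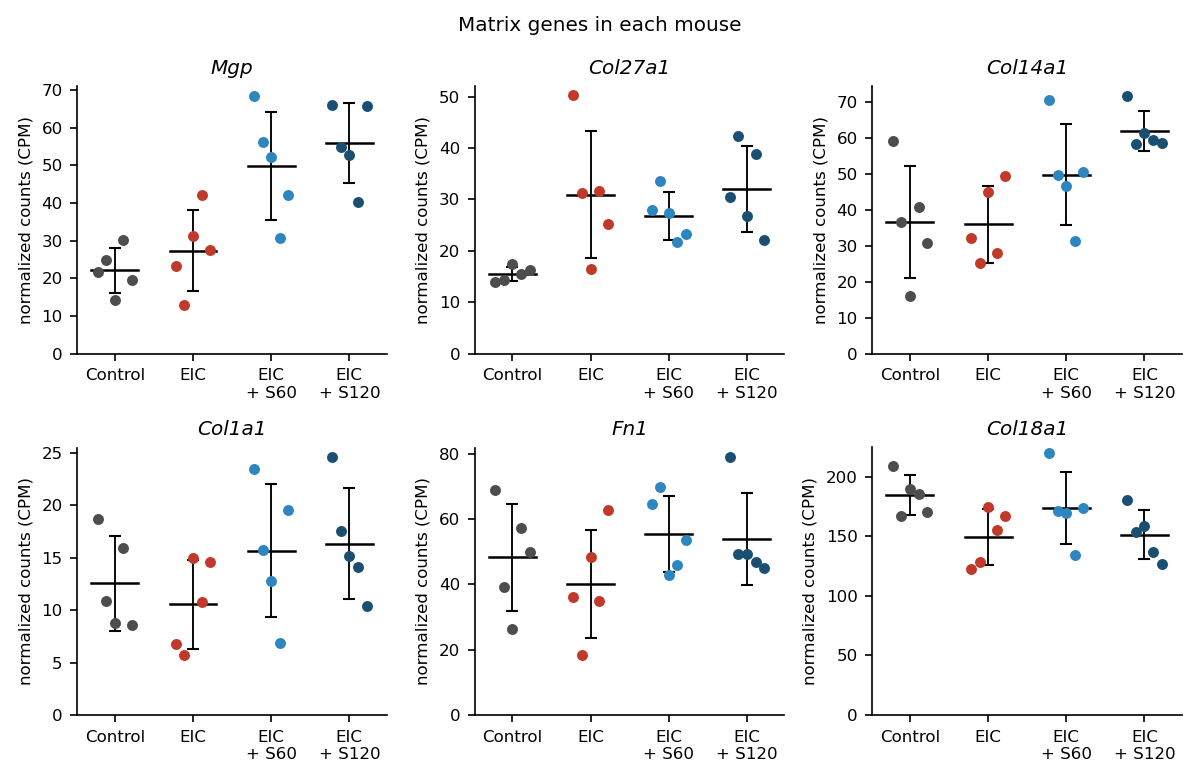
Normalized counts (CPM, linear axes from 0) of Mgp, Col27a1, Col14a1, Col1a1, Fn1 and Col18a1 in each of 20 mice by group, with the mean as a horizontal line and bars of 1 SD (n = 5). Mgp in both sparsentan groups lies above all Control mice, Col27a1 in both sparsentan groups and 4 of 5 EIC mice lies above all Control mice, and the other panels overlap between Control and EIC.

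The type I and III chains, which form the bulk of fibrils in a scar, did not pass in any comparison. Col1a1 (ENSMUSG00000001506.10, chr11:94936224-94953042) was at 18.7, 10.9, 8.77, 15.9 and 8.59 CPM in Control and 6.81, 5.75, 14.95, 10.8 and 14.6 CPM in EIC. It was at 23.5, 15.8, 12.8, 6.84 and 19.6 CPM in EIC + S60 and 24.6, 17.6, 15.2, 14.1 and 10.4 CPM in EIC + S120. All 4 groups overlapped, and the LFC was -0.26 ± 0.33 in EIC vs. Control (adjusted p = 0.755, edgeR), 0.57 in EIC + S60 and 0.63 in EIC + S120 relative to EIC (adjusted p = 0.834 and 0.645). The second type I chain, Col1a2 (ENSMUSG00000029661.16, chr6:4504814-4541544), had 58.03, 43.5, 37.1, 51.4 and 38.3 CPM in Control and 30.7, 23.02, 57.9, 52.7 and 55.99 CPM in EIC. Its values were 69.7, 54.5, 42.8, 31.6 and 49.8 CPM in EIC + S60 and 80.00, 54.7, 54.1, 49.8 and 47.3 CPM in EIC + S120. EIC 66 was the lowest and EIC + S120 77 the highest of the 20 mice for Col1a2, and the LFC was -0.06, 0.17 and 0.38 in the same comparisons, with adjusted p = 0.945, 0.949 and 0.7104 (edgeR).

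Col3a1 (ENSMUSG00000026043.18, chr1:45311538-45349706), the chain of the reticular fibers that sheath tubules and vessels, gave the same order of mice at its ends. It measured 31.5, 24.5, 16.1, 32.6 and 20.8 CPM in Control and 14.9, 10.2, 33.03, 20.5 and 31.5 CPM in EIC, and then 45.7, 34.9, 27.7, 13.7 and 31.3 CPM in EIC + S60 and 49.96, 29.2, 25.6, 27.7 and 17.7 CPM in EIC + S120. EIC 66 was again the lowest and EIC + S120 77 the highest. The LFC was -0.20 ± 0.33 in EIC vs. Control (adjusted p = 0.835, edgeR). Among the type V chains, which start fibrils, Col5a1 averaged 8.34 ± 2.44 CPM in Control and 5.97 ± 1.38 in EIC (SD, n = 5), and Col5a2 was 0.55 ± 0.21 on the log2 scale above EIC in EIC + S120 (adjusted p = 0.482). Col24a1, a minor fibrillar chain known from bone, had at most 21 counts in a library. Control mice had 0.458, 0.527, 0.436, 0.476 and 0.387 CPM, EIC mice 0.338, 0, 0.171, 0.292 and 0.105 CPM, EIC + S60 mice 0.524, 0.173, 0.582, 1.04 and 0.318 CPM, and EIC + S120 mice 0.0593, 0.655, 0.428, 0.189 and 0.179 CPM. The Control and EIC mice did not overlap for Col24a1, which was 1 of 47 members against 4.01% of all genes in that comparison, but its LFC of -1.30 ± 0.45 had adjusted p = 0.244 (edgeR). In EIC + S60 vs. EIC its LFC was 1.47 ± 0.45 (adjusted p = 0.755), and between the doses it was -0.77 ± 0.45 (adjusted p = 0.787).

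Of the 4 fibril-associated collagens tested, edgeR called 0 in each comparison, with 1 at an unadjusted p under 0.05 in EIC + S120 vs. EIC and in EIC + S120 vs. Control. It was Col14a1 (ENSMUSG00000022371.16, chr15:55307750-55520803), which binds fibrils of type I collagen and marks fibroblasts. It had 59.1, 36.5, 16.1, 40.7 and 30.8 CPM in Control, where Control 653 was the lowest of all mice, and 32.2, 25.3, 44.9, 27.95 and 49.5 CPM in EIC. The EIC + S60 mice had 70.6, 49.6, 46.8, 31.4 and 50.6 CPM and the EIC + S120 mice 71.7, 58.5, 61.3, 59.5 and 58.7 CPM. At the higher dose all 5 mice lay above all 5 EIC mice, 1 of 47 members against 1.2% of all genes. The LFC was 0.78 ± 0.26 against EIC (adjusted p = 0.429) and 0.74 ± 0.26 against Control (adjusted p = 0.123, edgeR). DESeq2 called the latter. The other 7 listed fibroblast markers overlapped, with sums between 53.2 and 116 CPM in EIC and between 70.3 and 142 CPM in EIC + S120. Col12a1 was nearly level, with means of 7.74 ± 1.14, 7.75 ± 2.21, 7.89 ± 0.482 and 7.74 ± 2.38 CPM in the groups from Control to EIC + S120.

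Among the beaded and network collagens, 7 of 10 were tested and none was called by edgeR; Col8a1 was the one at an unadjusted p under 0.05 in both comparisons with EIC. Col8a1, a short chain that forms lattices in vessel walls, had 13.6, 11.1, 9.33, 11.2 and 11.1 CPM in Control and 8.21, 12.1, 9.27, 10.1 and 10.7 CPM in EIC. It had 17.6, 9.06, 15.9, 14.3 and 12.03 CPM in EIC + S60 and 13.6, 14.2, 14.9, 11.5 and 11.4 CPM in EIC + S120. Both treated groups overlapped with EIC, with an LFC of 0.45 ± 0.15 (adjusted p = 0.738) and 0.38 ± 0.15 (adjusted p = 0.474, edgeR). Type VI collagen forms the beaded filaments around cells, and Col6a1 is the chain with the highest level per length in this role. Col6a1 measured 21.4, 13.1, 9.27, 15.2 and 7.97 CPM in Control and 13.3, 7.96, 20.8, 14.7 and 21.2 CPM in EIC, against 24.6, 19.4, 16.2, 11.1 and 16.6 CPM in EIC + S60 and 28.8, 16.9, 21.3, 19.1 and 16.5 CPM in EIC + S120. The groups overlapped, and its LFC was 0.20 ± 0.27 in EIC vs. Control and 0.59 ± 0.27 in EIC + S120 vs. Control (adjusted p = 0.785 and 0.255, edgeR).

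Col18a1 (ENSMUSG00000001435.15, chr10:77052178-77166548, minus strand), whose end fragment is endostatin, came after Col27a1 and Loxl4 in order of p among the members in EIC vs. Control. Control mice had 209, 167, 190.2, 185 and 171 CPM and EIC mice 122, 129, 175, 156 and 167 CPM. The values were 219.9, 171, 169.8, 134 and 174 CPM for EIC + S60 mice and 180.2, 153, 159, 137 and 127 CPM for EIC + S120 mice. The LFC was -0.30 ± 0.12 in EIC vs. Control (adjusted p = 0.197), -0.29 ± 0.12 in EIC + S120 vs. Control (adjusted p = 0.181) and -0.20 ± 0.12 between the doses (adjusted p = 0.745), none of which passed in edgeR. Slc19a1 overlaps Col18a1 on the opposite strand and whether strand was used in counting is not given, so reads of the 2 genes may be mixed. The transmembrane collagen Col23a1 was the one member whose sparsentan groups did not overlap with each other, against 1.66% of all genes. It had 2.13, 2.13, 4.85, 3.33 and 2.399 CPM in Control and 2.61, 0.872, 3.52, 2.57 and 2.05 CPM in EIC, then 2.42, 1.85, 1.98, 2.35 and 1.98 CPM in EIC + S60 and 3.73, 2.501, 3.12, 2.96 and 2.74 CPM in EIC + S120. The dose difference was an LFC of 0.51 ± 0.27 with adjusted p = 0.684 (edgeR), and the count of members at an unadjusted p under 0.05 in that comparison was 0 by edgeR, DESeq2 and limma-voom.

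The 4 fibulins with an Fbln symbol all passed the filter. Fibulins tether elastic fibers to cells and basement membranes. Fbln5, needed to assemble elastic fibers, had 151, 109, 49.96, 129 and 91.3 CPM in Control and 105, 76.3, 139, 69.6 and 145 CPM in EIC. Its values were 168, 115, 115, 74.2 and 114 CPM in EIC + S60 and 158, 126, 143, 116 and 138 CPM in EIC + S120, and Control 653 was the lowest mouse. Its LFC did not pass in any comparison and was 0.36 ± 0.26 in EIC + S120 vs. Control (adjusted p = 0.489, edgeR). Fbln2 was lower in level, with 4.42, 4.02, 3.795, 2.72 and 3.33 CPM in Control and 4.200, 3.89, 4.78, 6.32 and 3.26 CPM in EIC. The treated mice had 5.96, 3.58, 6.46, 4.93 and 5.91 CPM in EIC + S60 and 6.22, 5.95, 4.89, 5.04 and 4.23 CPM in EIC + S120. Against Control its LFC was 0.54 ± 0.18 in EIC + S60 (adjusted p = 0.181) and 0.51 ± 0.18 in EIC + S120 (adjusted p = 0.116), neither past the threshold in edgeR.

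The lysyl oxidases cross-link collagen and elastin. The LFC of each of the 5 was below 0 in EIC vs. Control, with none called. In that comparison 32 of 47 members and 7335 of 13990 genes had an LFC below 0. Loxl1, the family member tied to elastic fibers and the highest per length, had 23.6, 15.5, 7.902, 21.8 and 16.2 CPM in Control and 13.7, 9.59, 21.9, 11.9 and 19.1 CPM in EIC. It had 29.9, 17.8, 19.5, 10.9 and 17.7 CPM in EIC + S60 and 22.7, 20.7, 19.6, 16.5 and 17.9 CPM in EIC + S120, with an LFC of -0.16 ± 0.27 in EIC vs. Control (adjusted p = 0.823, edgeR). Loxl4 (ENSMUSG00000025185.14, chr19:42593982-42612813, minus strand) had 1.94, 1.18, 25.3, 1.700 and 1.32 CPM in Control, where Control 653 stood far above the rest. In EIC it had 0.869, 0.291, 1.08, 1.29 and 0.841 CPM, in EIC + S60 1.64, 2.14, 0.407, 0.876 and 1.06 CPM and in EIC + S120 2.01, 1.13, 1.100, 0.504 and 0.596 CPM. The LFC of -2.82 ± 0.64 in EIC vs. Control (adjusted p = 0.0762, edgeR) became -0.81 without Control 653 (adjusted p = 0.358), and that of -2.52 ± 0.64 in EIC + S120 vs. Control (adjusted p = 0.0824) became -0.52 (adjusted p = 0.574). These SEs come from a separate fit on log2 CPM and are not those of the edgeR LFC beside them. Without the 2 deepest Control libraries, a fit that keeps Control 653, Loxl4 was called in EIC + S120 vs. Control (LFC -3.13, adjusted p = 0.0323, edgeR). Loxl3 overlaps Htra2 on the opposite strand, and its LFC in EIC vs. Control was -0.0015 with an SE of 0.21.

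Fibronectin (Fn1, ENSMUSG00000026193.15, chr1:71585520-71653200, minus strand), the first protein laid down in repairing tissue, had 68.8, 39.2, 26.2, 57.3 and 49.9 CPM in Control and 36.1, 18.5, 48.3, 34.97 and 62.8 CPM in EIC. It had 64.6, 69.7, 42.7, 46.1 and 53.5 CPM in EIC + S60 and 78.9, 49.2, 49.2, 46.8 and 45.1 CPM in EIC + S120, with EIC 66 lowest and EIC + S120 77 highest. The LFC of -0.27 ± 0.27, 0.46 ± 0.27 and 0.42 ± 0.27 in EIC vs. Control and in the 2 sparsentan groups vs. EIC had adjusted p = 0.695, 0.844 and 0.7202 (edgeR), none past the threshold. Periostin (Postn), a matricellular protein often high in fibrotic kidney, was low and variable. It had 0.782, 2.46, 5.102, 4.01 and 2.09 CPM in Control and 2.12, 0.756, 2.96, 2.22 and 1.26 CPM in EIC, then 3.87, 2.37, 5.76, 0.985 and 3.396 CPM in EIC + S60 and 2.904, 3.81, 2.14, 1.89 and 2.44 CPM in EIC + S120. All its groups overlapped, and its LFC in EIC vs. Control was -0.60 ± 0.45 (adjusted p = 0.555, edgeR).

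SPARC, which binds collagen and is made by endothelial and mural cells, has the highest level per length of the members. Sparc had 187, 174, 149, 180.2 and 162 CPM in Control and 150.1, 144, 246, 231 and 205 CPM in EIC, and 239.8, 221, 195, 162 and 166 CPM in EIC + S60 and 209, 175, 191, 171 and 161 CPM in EIC + S120. Its LFC lay between -0.12 and 0.21 over the 6 comparisons, none of which passed in edgeR. Thrombospondin 1 (Thbs1), an activator of latent TGF-β, averaged 35.6 ± 10.6 CPM in Control, 35.3 ± 7.66 in EIC, 40.8 ± 12.9 in EIC + S60 and 34.6 ± 16.9 in EIC + S120 (SD, n = 5), and did not pass either.

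Biglycan (Bgn), a fibril-binding proteoglycan, had 178, 139, 112, 149 and 103 CPM in Control and 117, 70.7, 164, 166 and 166 CPM in EIC. It had 208, 153, 127, 108 and 132 CPM in EIC + S60 and 239, 149.8, 164, 155 and 129.5 CPM in EIC + S120, so that EIC 66 was again lowest and EIC + S120 77 highest of all mice. The LFC was 0.00 ± 0.22 in EIC vs. Control (adjusted p = 0.999) and 0.29 ± 0.22 in EIC + S120 vs. EIC (adjusted p = 0.763, edgeR). Decorin (Dcn), its relative, averaged 25.4 ± 7.54 CPM in Control, 29.1 ± 17.7 in EIC, 32.2 ± 10.5 in EIC + S60 and 36.7 ± 6.72 in EIC + S120. All 4 proteoglycans had an LFC above 0 in both sparsentan groups vs. EIC, from 0.09 to 0.62 at the lower dose and from 0.29 to 1.06 at the higher, with none called. In these comparisons 38 and 37 of the 47 members were above 0, against 49.4% and 50.5% of all genes. The 1.06 is Vcan and came from EIC + S120 77: without the highest mouse of each group, mean Vcan was 0.152 CPM in EIC + S120 and 0.354 CPM in EIC, the opposite direction.

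Versican (Vcan, ENSMUSG00000021614.16, chr13:89655312-89742509, minus strand), the large proteoglycan of loose matrix, and tenascin C (Tnc), a glycoprotein of wounded tissue, had their highest values in Control 653, as did Loxl4. Vcan had 0.297, 0.452, 42.4, 0.476 and 0.232 CPM in Control, and outside that mouse its highest value was 5.57 CPM in EIC + S120 77. Tnc had 1.699, 2.94, 28.9, 4.56 and 2.71 CPM in Control and at most 14.6 CPM in any other mouse. The fibrillar chain Col5a3 had 3.24 CPM in Control 653 and at most 0.8196 CPM elsewhere. Vcan's LFC of -3.85 ± 1.14 in EIC vs. Control (adjusted p = 0.209, edgeR) rested on it: without the highest mouse of each group, the group means were 0.364 CPM in Control and 0.354 in EIC.

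Markers of fat, urothelium and collecting duct were also highest in Control 653. Its 4 listed adipocyte markers summed to 301 CPM against at most 75.6 in any other mouse, with Plin1 at 28.7 CPM there and at most 1.62 CPM elsewhere, and Adipoq at 14.5 CPM. The 4 listed urothelial markers summed to 37.2 CPM against at most 14.3, with Upk1a at 12.9 CPM. The 3 collecting duct markers summed to 1349 CPM against at most 578, and its 6 proximal tubule markers, 7445 CPM, were the lowest of all mice. Fibroblast markers summed to 112 CPM without Col14a1, behind EIC + S120 77 and EIC 67. The part of these markers in the Vcan, Tnc and Loxl4 values was not tested. Without Control 653 alone, EIC + S60 vs. Control called 0 members, so the Mgp call was lost there. Without both Control 653 and EIC 66, a fit that was not planned beforehand, the members called were the same in number in each comparison: 1, 0, 0, 1, 2 and 0.

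**Figure D4:**
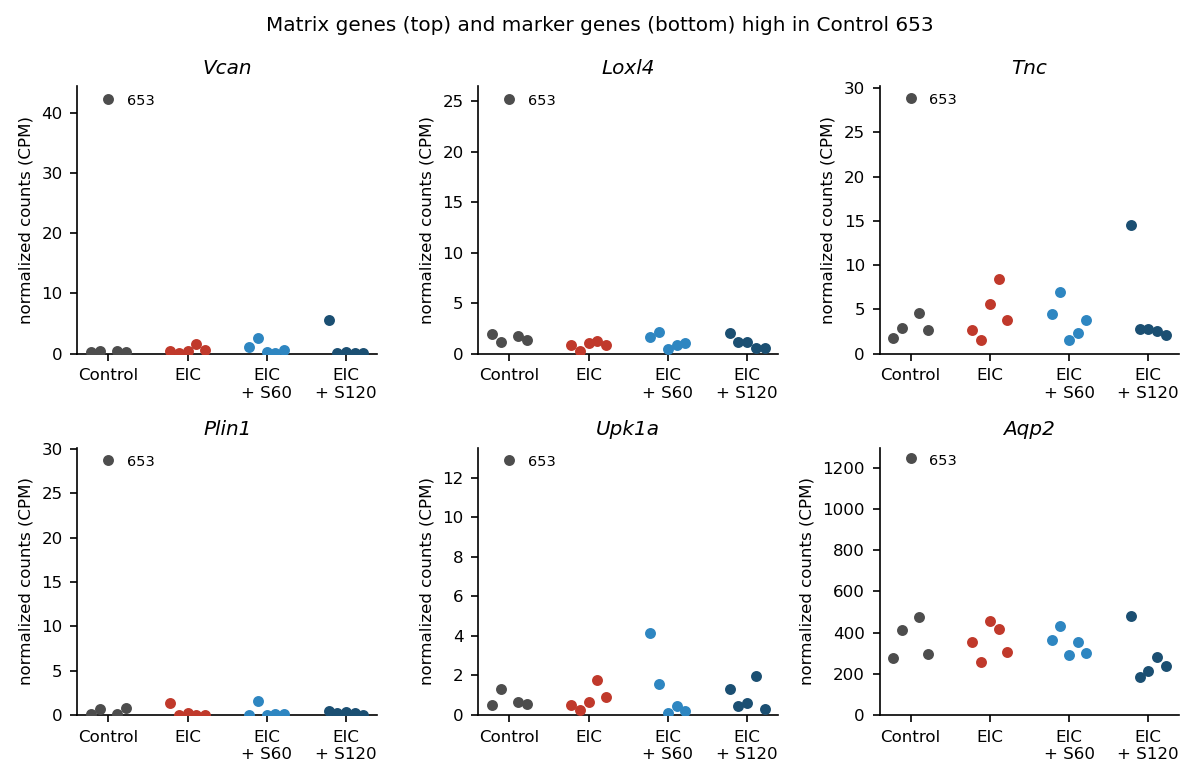
Normalized counts (CPM, linear axes from 0) of 3 matrix genes (Vcan, Loxl4, Tnc; top) and of one marker each of adipocytes (Plin1), urothelium (Upk1a) and collecting duct (Aqp2; bottom) in each of 20 mice by group. The labeled point, Control 653, is the highest in all 6 panels, at 42.4 CPM for Vcan and 28.7 CPM for Plin1.

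The median LFC of the members lay below 0 in EIC relative to Control and above 0 with sparsentan relative to EIC, and leaving out 1 mouse turned its sign in 4 of the 6 comparisons but not in those of sparsentan with EIC. The median was -0.10 in EIC vs. Control, 0.19 with the lower dose relative to EIC and 0.29 with the higher, while the median of all genes was between -0.01 and 0.00. The LFC was above 0 for 15, 38 and 37 of the 47 members in those comparisons, against 47.6%, 49.4% and 50.5% of all genes. The comparisons share the EIC mice. Over the fits that left out each mouse in turn, the median ran from 0.019 to 0.30 at the lower dose against EIC and from 0.11 to 0.38 at the higher. Without EIC 66 the medians were 0.02, 0.02 and 0.11, and the LFC was above 0 for 25, 25 and 32 members. Against Control the median was 0.14 in EIC + S60, and -0.02 without EIC + S60 71. In EIC + S120 vs. Control it was 0.16, and -0.01 without EIC + S120 77. Between the doses the median was 0.07, and -0.09 without EIC + S120 77. In these last 3 comparisons the LFC was above 0 for 31, 28 and 27 members, against 47.3%, 46.8% and 50.2% of all genes.

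A few mice were at the ends of many members at once. EIC 66 was the lowest of 20 mice for 31 of the 47 tested members and the highest for 0, with members at a median of -0.76 on the log2 scale from their group means. EIC + S120 77 was the highest for 14 members and EIC + S60 71 for 9, with median deviations of 0.47 and 0.41. Members took 0.0666% of all counts in EIC 66 and 0.171% in EIC + S120 77, the lowest and highest shares of all mice. Stromal marker sums also had their lowest and highest values among these mice. The fibroblast markers other than Col14a1 summed to 53.2 CPM in EIC 66, the lowest of 20 mice. In EIC + S120 77 they summed to 142 CPM, the highest. The 9 mural and myofibroblast markers summed to 120 CPM in EIC 66, again the lowest, and to 237 CPM in EIC + S60 71, the highest. Control 653 went the other way. It ranked 3 from the highest for fibroblast markers (112 CPM) and 4 for mural markers (214 CPM). Its members had a median of -0.25 from their group means. EIC 66 also had the lowest adipocyte and urothelial sums, 23.2 and 0.523 CPM. The part of all these markers in the members' values was not tested.

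Chains that share a trimer or a fibril varied together over mice, and most other pairs of members also had r above 0. The test asks whether r differs from 0. Whether partner chains exceed other pairs was not tested. With group means removed, Col1a1 and Col1a2 had r = 0.935 and rho = 0.959 over 20 mice (permutation within groups, two-sided, both adjusted over 8 pairs: p = 2.67e-05 and 4e-05). The pairs Col1a1 with Col3a1 (r = 0.957, rho = 0.950), Col6a1 with Col6a2 (r = 0.943, rho = 0.925) and Col6a1 with Col6a3 (r = 0.929, rho = 0.902) were as close, and Col5a1 with Col5a2 gave r = 0.867 and rho = 0.854 (largest adjusted permutation p = 8e-05). Between Col1a1 and Fn1 r was 0.751 and rho 0.781 (adjusted permutation p = 0.000387 and 0.000307). All 6 held without the 2 mice farthest from the median of the first gene, at r = 0.929, 0.931, 0.907, 0.870, 0.796 and 0.751. Col1a1 with Dcn gave r = 0.661 and rho = 0.648 (adjusted permutation p = 0.00622 and 0.00944) but r = 0.431 (adjusted permutation p = 0.158) without the 2 farthest mice, so that relation rested on them. The 2 chains of type VIII collagen were the exception, with r = 0.261 and rho = 0.221 for Col8a1 with Col8a2 (adjusted permutation p = 0.307 and 0.387), where Col8a2 had at most 19 counts in a library. The 2 values of a mouse come from one library and share its depth. Leaving out the deep Control libraries left r between 0.932 and 0.965 for the first 2 pairs and the type VI pairs at 0.937.

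Over all 1081 pairs of tested members the median r was 0.359, given as a description, and 892 pairs were above 0. Col15a1, the basement membrane collagen of vessels, had the highest median r with the other members, 0.674, followed by Col1a2 at 0.661 and Col3a1 at 0.652. Col27a1, one of the 2 members called, had a median r of -0.15 and a positive r with 14 of 46 members, while Mgp had a median of 0.576 and a positive r with 42 of 46.

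**Figure D5:**
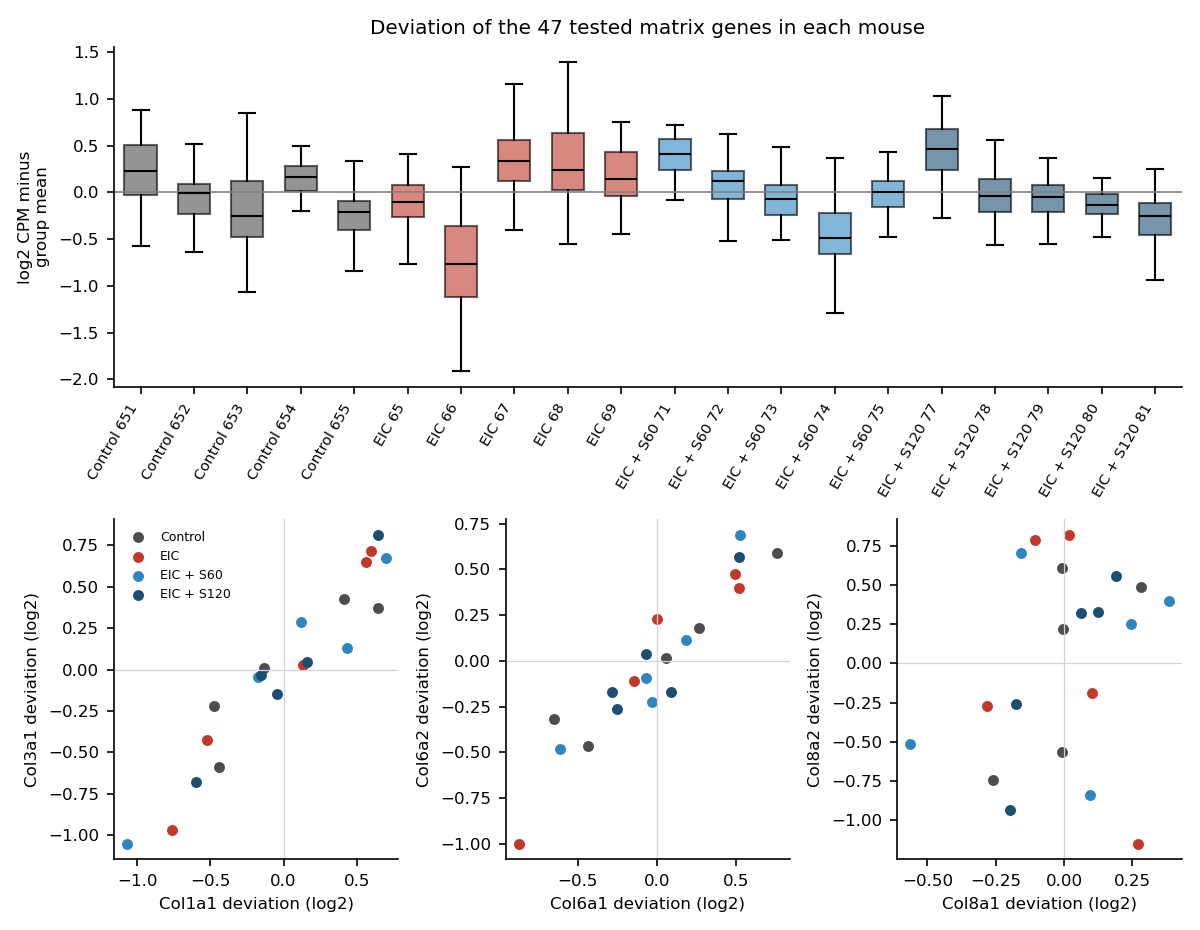
Top, deviation of the 47 tested matrix genes from their group means in each mouse (log2 CPM; the box spans the middle 50% of genes, the line is the median and the whiskers reach 1.5 times the box height), and bottom, the same deviations of Col1a1 with Col3a1, Col6a1 with Col6a2 and Col8a1 with Col8a2, one point per mouse. EIC 66 has the lowest median, -0.76, EIC + S120 77 the highest, 0.47, and the first 2 pairs follow a line (r = 0.957 and 0.943) where the type VIII pair does not (r = 0.261).

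The machinery that hydroxylates, folds, exports and trims collagen was measured from a list of 29 genes, of which 27 were listed and 26 tested. edgeR called 0 of the 26 in each of the 6 comparisons, against 2.97%, 0%, 0.0572%, 1.29%, 5.55% and 0.0643% of all genes in the order used above. At an unadjusted p under 0.05 there were 3, 1, 2, 3, 4 and 1 of the 26, against 16.8%, 6.05%, 8.45%, 12.7%, 20% and 8.08% of all genes. DESeq2 called Plod3, a collagen lysyl hydroxylase, in EIC vs. Control and P4hb, a subunit of prolyl hydroxylase, in EIC + S120 vs. Control, and limma-voom called 0. Their edgeR LFC was 0.17 ± 0.05 for Plod3 (adjusted p = 0.0759) and 0.21 ± 0.07 for P4hb (adjusted p = 0.0924). The median LFC of the list lay between 0.02 and 0.05 over the 6 comparisons. Serpinh1, the collagen chaperone HSP47, had 94.5, 97.3, 95.6, 92.2 and 83.6 CPM in Control and 87.3, 81.02, 83.7, 102 and 106 CPM in EIC, and the groups overlapped. Macrophage markers, a list picked by hand with earlier results of these data known, did pass in EIC vs. Control: 5 of 9 were called, all higher. They were C1qa, C1qb, C1qc, Adgre1 and Lyz2, which the study already reports as raised by the complexes in these mice. Among all genes, 2.97% were called and 1.61% were called higher. The count of markers is therefore a description and no independent contrast. C1qa, a chain of the first complement component, had 5.85, 7.68, 6.097, 9.93 and 7.196 CPM in Control and 12.9, 12.5, 34.9, 16.2 and 24.1 CPM in EIC, an LFC of 1.46 ± 0.24 (adjusted p = 0.00437, edgeR). In the same libraries the fibrillar chains of type I and III had LFCs between -0.26 and -0.06 with SEs of 0.24 to 0.33.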

How the data were processed

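Kidney RNA of 20 mice, 5 per group, was sequenced after poly(A) selection. The authors deposited raw read counts per gene; the submitters' processing notes name Trimmomatic 0.36, STAR 2.5.2b, featureCounts of Subread 1.5.2 and the build GRCm38, with annotation and strand setting not given in the sources used here. EIC 65 has no gene at 0, where the other libraries have 234 to 654. Every one of the 15780 listed genes thus has a count in EIC 65. The rule and the marker lists could therefore reach only genes detected in that mouse.

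A gene was kept if 5 or more libraries had 10 or more counts. All 20 libraries were fitted together with edgeR 4.0.16 (TMM scaling, robust quasi-likelihood test) in R 4.3.3, for 6 comparisons. Calls were made at an adjusted p of 0.05, Benjamini-Hochberg over all genes tested. SEs came from limma 3.58.1 on log2 CPM (prior count 2). Lengths for levels per kb were the summed exons of GENCODE vM21, used here for positions too. Co-variation was tested with 100000 permutations within groups, the smallest possible p being 1e-05. The scripts were tested on simulated data.

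Values in every mouse are given for called members, the 3 with the smallest p in each comparison, Col1a1, Col1a2, Col3a1, Fn1 and Postn, and the highest per length in each role; values of Vcan, Tnc and Col5a3 were added after they were seen. The members, the collagen processing list and the cell type markers were chosen with earlier results of these data known. Alternatives were RLE scaling, other filters, limma-voom, DESeq2 1.42.0, fits to 10 libraries, and fits without single or deep libraries. All counts cover depth from 12662345 to 38651781 per library, and no column of per-sample values was left unused.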

Additional observations from a re-analysis of the deposited data

Results flagged for a closer look

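Of 76 groups of 5 mice tested among the members described mouse by mouse, 4 held a mouse set far apart from the nearest other one relative to the range of its group (Dixon's ratio above 0.71). Chance flags about 1 in 20 groups. Vcan, Tnc and Col5a3, added after their values were seen, were not among the groups tested. The count thus leaves out their highest values, 42.4, 28.9 and 3.24 CPM in Control 653. Loxl4 stood at 25.3 CPM in Control 653, the mouse with the highest adipocyte, urothelial and collecting duct markers. EIC + S120 77 was set apart by 3 of the genes tested, with Col14a1 at 71.7 CPM, Col1a2 at 80.0 CPM and Fn1 at 78.9 CPM. This mouse also had the highest sum of fibroblast markers. The part of those markers in the values was not tested.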

How the results depend on the processing

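No paired analysis was possible because the groups compared share fewer than 2 numbers: mouse numbers differ between all groups. Members called became 1 (Mgp) in EIC + S120 vs. EIC and 2 (Mgp and Col27a1) in EIC + S60 vs. Control with DESeq2, and 0 in EIC vs. Control with only the 10 libraries compared. In EIC + S60 vs. Control the 10 libraries called 1 member, Col27a1 in place of Mgp. Without the 2 deepest Control libraries, 0 were called in EIC vs. Control and 0 in EIC + S60 vs. Control, while EIC + S120 vs. Control called Mgp and Loxl4, with Loxl4 in place of Col27a1. Leaving out each mouse in turn, members called ran from 0 to 1 in EIC vs. Control, 0 to 2 in EIC + S60 vs. Control and 2 to 3 in EIC + S120 vs. Control, and stayed at 0 in the other 3 comparisons. The LFC of Col27a1 against EIC ran from -0.37 to 0.033 in EIC + S60, above 0 without EIC 65, and from -0.11 to 0.30 in EIC + S120, below 0 without EIC 67 (-0.11), without EIC 69 (-0.02), and without the 120 mg/kg mice 78 (-0.08) or 80 (-0.04). The correlation of Col1a1 with Dcn was 0.431 without the 2 farthest mice. The cause of these changes was not tested. DESeq2 called 704 genes in EIC vs. Control against 416 by edgeR, 5 against 0 in EIC + S60 vs. EIC, 65 against 8 in EIC + S120 vs. EIC, 359 against 180 in EIC + S60 vs. Control and 81 against 9 between the doses. The fits to 10 libraries called 143, 1 and 2 genes in EIC vs. Control, EIC + S60 vs. EIC and EIC + S120 vs. EIC, and without the deep Control libraries 124 and 119 were called in EIC vs. Control and EIC + S60 vs. Control. In EIC + S120 vs. EIC, RLE scaling and no filter each called 5, and leaving out Control 653 and EIC 66 called 14. Leaving out single mice, genes called ran from 233 to 465, 0 to 1, 1 to 14, 103 to 224, 489 to 1172 and 2 to 54 in the order of the report. Low counts limit Col24a1, Col8a2 and the untested members.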

Other observations

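The genes most like Mgp over the 20 mice, given as a description with no test and chosen after their values were seen, included 2 products of juxtaglomerular and renin-lineage cells. Ren1, renin, had r = 0.879 with Mgp on log2 CPM, the highest of 13989 genes, and Akr1b7, an aldo-keto reductase, had 0.857. Itgbl1 had r = 0.855, and Ednra, the endothelin A receptor that sparsentan blocks, had 0.854. With group means removed, r was 0.583 for Ren1 (rank 447 of 13989 genes), 0.666 for Akr1b7 (rank 194), 0.843 for Itgbl1 (rank 8) and 0.752 for Ednra (rank 65). Cygb, a globin of fibroblasts and pericytes, then had 0.892 (rank 2). The 2 values of a mouse come from one library and share its depth.

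Col27a1 was most like Slc25a42, a mitochondrial carrier of coenzyme A, with r = 0.862, then Zbtb14 with 0.837 and the clock gene Per2 with 0.835. With group means removed these were 0.635 (rank 57 of 13989 genes), 0.549 (rank 214) and 0.555 (rank 195).

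Pooling groups was tried after seeing the data, with all 20 libraries. Against EIC, the 2 sparsentan groups together had a Mgp LFC of 0.95 ± 0.23 (adjusted p = 0.393, edgeR), and 0 of 13990 genes were called. Against Control, the 3 groups with complexes together called 3 members among 804 genes (5.75%). These were Col27a1 (LFC 0.95 ± 0.18, adjusted p = 0.00718, edgeR), Mgp (0.94 ± 0.21, adjusted p = 0.0233) and Loxl4 (-2.56 ± 0.52, adjusted p = 0.0136). The Loxl4 call rests on a Control mean in which Control 653 is 25.3 CPM and the next mouse 1.94 CPM. The Mgp call pools EIC with the 2 groups that also received sparsentan. Mean Mgp was 22.1 CPM in Control and 27.4 CPM in EIC, against 49.9 in EIC + S60 and 55.95 in EIC + S120. EIC alone did not pass against Control for Mgp.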
